A study of Mus musculus with 24 samples.

Results

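The 6 liver genes Hsd3b5, Slco1a1, Cux2, Cyp17a1, Bcl6 and Car3, known from work on growth hormone and on the difference between male and female liver, were followed across fasting and the loss of Ppara, a nuclear receptor gene that drives fatty acid use. They are 6 of the 27248 gene symbols on the array and carry 12 of its 56605 probes. They were picked by name with earlier results of these data in view, so their group differences are given as a description, with an SE and no test. The liver RNA came from male C57Bl/6J mice aged 8 weeks and killed at ZT16, which is 16 h after the lights came on, and was hybridised with Cy3 on 1-colour Agilent arrays. Of the mice lacking Ppara in the liver (LKO), 6 had been fasted for 24 h and 6 had fed ad libitum. Of the mice with an intact liver Ppara (WT), 5 had been fasted for 24 h and 5 had fed ad libitum. The series text gives 6 mice per group, but the animal numbers in the labels show that 1 fasted WT and 1 fed WT animal were each hybridised on 2 arrays, and the arrays of such an animal were averaged. The sources used here do not name the promoter of the Cre, the deleted exon or the origin of the WT mice.

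In male rodents the pituitary releases growth hormone in pulses, and in females its release is more continuous. The hepatocyte reads the pattern through the growth hormone receptor, the kinase JAK2 and the transcription factor STAT5b, and many steroid enzymes, transporters and secreted proteins of the liver differ between the sexes for that reason. Pulses keep male-biased genes such as Hsd3b5 high, while continuous exposure switches on female-biased genes such as Cux2. Fasting is known to make the mouse liver resistant to growth hormone.

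Levels below are log2 signals relative to the array's 75th percentile, a scale on which a step of 1 is a doubling. A level of one gene is not comparable with that of another, since each comes from its own probe. All 6 genes and all 12 of their probes were well above background in at least 5 animals, and no spot was saturated or marked as an outlier. Ppara itself was measured by 2 probes. At the brighter one it averaged 5.07 ± 0.11 in fasted LKO, 4.63 ± 0.37 in fed LKO, 5.93 ± 0.13 in fasted WT and 5.29 ± 0.20 in fed WT (SD). At the other it averaged 3.64 ± 0.14, 3.11 ± 0.32, 4.64 ± 0.16 and 3.95 ± 0.25 in the same 4 groups. Whether either probe lies in the deleted part is not given in the sources used here. The 7 hepatocyte markers of the marker list were detected in every group, and their summed signal was similar, at 3812 to 4103 in fasted LKO, 3907 to 4227 in fed LKO, 3706 to 4005 in fasted WT and 3709 to 4159 times the 75th percentile in fed WT. Single markers did change: with fasting, 3 of the 7 were called higher and 1 lower in LKO (limma, adjusted p below 0.05), against 23.0% and 26.7% of all genes tested. In WT 2 were called higher and 1 lower, against 22.8% and 21.7%. Between genotypes none of the 7 was called in either state.

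One animal stands apart. Fed LKO mouse 3 had an Lcn2 level of 6.98 and a Socs3 level of 3.36, while the rest of its group had 0.37 to 2.22 for Lcn2 and -0.23 to 0.84 for Socs3. Lcn2 encodes a protein of the acute-phase response and Socs3 a feedback inhibitor of cytokine signalling, and both were looked at after the member values had been seen. This animal was also the lowest fed LKO mouse for Hsd3b5, Slco1a1 and Car3. The part of that state in the results was not tested, and values without this animal are given for Hsd3b5, Slco1a1, Car3 and Cyp17a1.

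Hsd3b5 encodes a steroid dehydrogenase of the 3-beta family that acts as a ketosteroid reductase in the liver of male mice. Its level was 1.88, 2.67 and 3.14 in fasted LKO (lowest, median and highest of 6) and 3.85, 5.50 and 5.90 in fed LKO. The 5 fasted WT mice had levels of -0.07, -0.23, 0.37, 0.49 and -0.18, against 5.67, 5.85, 5.41, 5.62 and 5.59 in the 5 fed WT mice. Fasted and fed mice did not overlap in either genotype, and the fasted WT mice lay below every fasted LKO mouse. The fasted minus fed difference was -2.71 (SE 0.28) in LKO and -5.55 (SE 0.30) in WT, folds of 6.53 and 46.9 downward. The LKO minus WT difference was 2.50 (SE 0.29) in fasted mice, or 5.67-fold, and -0.34 (SE 0.29) in fed mice. The fasting difference in LKO minus that in WT was 2.85 (SE 0.41), and 2.56 (SE 0.29) without fed LKO mouse 3. Without that mouse the fed LKO minus WT difference was -0.06 (SE 0.21) and the fasting difference in LKO -2.99 (SE 0.20). A bulk liver sample cannot tell fewer cells that make a transcript from less of it per cell, for this and every gene below.

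The probe of Hsd3b5 lies at chr3:98422576-98422635 of the mouse build mm9, the build of the array files. Other members of the Hsd3b family are close copies and may share signal with it. Of the RefSeq promoter windows in build GRCm38.p6, 6 belong to the 6 genes, with a window each for Hsd3b5 and Slco1a1 and a pair each for Cux2 and Bcl6. The 250 bases before the start were searched on both strands for TTCNNNGAA, the core bound by STAT5, which resembles the site of the BCL6 protein and reads the same on both strands. Of all 32851 windows, 7.02% hold it. Neither the Hsd3b5 nor the Slco1a1 window does. Both are shown because, of the male-biased genes among the 6 that were lower in fasted WT mice, only Hsd3b5 and Slco1a1 had a window. They are written 5′ to 3′ on the minus strand, Hsd3b5 at chr3:98645535-98645784 and Slco1a1 at chr6:141946963-141947212.
Hsd3b5: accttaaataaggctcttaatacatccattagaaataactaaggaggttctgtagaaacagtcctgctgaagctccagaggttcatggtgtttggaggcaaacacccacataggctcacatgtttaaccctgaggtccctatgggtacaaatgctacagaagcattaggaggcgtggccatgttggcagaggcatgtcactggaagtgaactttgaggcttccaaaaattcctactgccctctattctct
Slco1a1: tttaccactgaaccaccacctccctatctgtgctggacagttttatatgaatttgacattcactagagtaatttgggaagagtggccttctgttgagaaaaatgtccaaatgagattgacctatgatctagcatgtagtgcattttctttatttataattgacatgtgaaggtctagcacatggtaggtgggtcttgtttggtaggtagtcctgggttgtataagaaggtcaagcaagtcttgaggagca
ATCAAT, the core bound by ONECUT1, was found on either strand in none of the 6 windows, against 6.72% of all windows. These are matches of letters only.

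Slco1a1 encodes OATP1A1, an uptake transporter for bile acids and steroid conjugates that is higher in male than in female mouse liver. Its level was 3.27, 3.60 and 3.91 in fasted LKO (lowest, median and highest) and 3.20, 3.82 and 3.96 in fed LKO. In fasted WT mice it was 2.16, 3.25, 3.02, 2.57 and 2.57, and in fed WT mice 4.09, 4.03, 3.98, 3.79 and 4.19. Fasted WT mice lay below all fasted LKO and all fed WT mice, by a gap of only 0.02 and one of 0.54, and overlapped fed LKO mice only through fed LKO mouse 3 at 3.20. The other 3 groups overlapped. The fasted minus fed difference was -0.10 (SE 0.16) in LKO and -1.30 (SE 0.18) in WT. The value in LKO was smaller than its SE. Their difference was 1.20 (SE 0.24), and LKO minus WT was 0.92 (SE 0.17) in fasted and -0.28 (SE 0.17) in fed mice. The second probe gave 0.86 (SE 0.20) for the difference of the fasting responses, with -0.27 (SE 0.13) in LKO and -1.13 (SE 0.14) in WT. Without fed LKO mouse 3 the fasting difference in LKO was -0.21 (SE 0.15) at the main probe and -0.38 (SE 0.12) at the second. The fed LKO minus WT difference was then -0.17 (SE 0.16), and the difference of the fasting responses 1.09 (SE 0.22), at the main probe. On the 3 slides, each with 2 arrays of every group, the fasting difference in LKO was 0.02, -0.47 and 0.14. The probes lie at chr6:141857328-141857387 and chr6:141856493-141856552 (mm9).

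Car3 encodes carbonic anhydrase 3, an abundant cytosolic protein of muscle, fat and liver that is higher in male than in female rat liver. Its level was 3.10, 4.57 and 6.09 in fasted LKO and 5.56, 8.11 and 8.17 in fed LKO (lowest, median and highest). Fasted WT mice had 6.16, 4.98, 5.87, 6.06 and 5.10, against 7.87, 8.10, 7.85, 7.87 and 7.75 in fed WT mice. At this main probe fed mice of both genotypes were alike and high apart from fed LKO mouse 3. That mouse is the lowest value of 5.56 and the only fed mouse within the fasted range. The fasted minus fed difference was -3.20 (SE 0.46) in LKO and -2.26 (SE 0.51) in WT, folds of 9.18 and 4.78 downward. Without fed LKO mouse 3 it was -3.62 (SE 0.38) in LKO, and the groups no longer overlapped. LKO minus WT was -1.14 (SE 0.48) in fasted and -0.19 (SE 0.48) in fed mice, the last being 0.23 (SE 0.39) without that mouse.

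The other 2 probes of Car3 carry another transcript ID, and all 3 lie on mm9 chromosome 3, from 14865173 to 14871840. At these probes fasted LKO mice lay below every fasted WT mouse, with LKO minus WT differences of -2.14 (SE 0.76) and -2.04 (SE 0.77), whereas the groups overlapped at the main probe. The difference of the fasting responses was -2.22 (SE 1.07) and -2.18 (SE 1.09) there, against -0.94 (SE 0.68) at the main probe. Without fed LKO mouse 3 it was -3.13 (SE 0.50) and -3.10 (SE 0.54) there, and -1.37 (SE 0.55) at the main probe. The fed LKO minus WT difference was then 0.99 (SE 0.36) and 1.06 (SE 0.39) there, and 0.23 (SE 0.39) at the main probe. Part of the values of -3.13 and -3.10 thus lies in the fed mice. The values at the other 2 probes without that mouse were added after the data had been seen. Fed LKO mouse 3 was at -2.24 and -3.23, while its group otherwise spanned 2.54 to 3.93 and 1.52 to 3.06. Car3 is high in muscle and fat, so markers of both were read. Ckm and Mb, defining genes of skeletal muscle, were not well above background in any animal. Of the 6 muscle markers, Tnnt3 was well above background in every animal. Myh4 was so in 6 fasted LKO, 4 fed LKO, 5 fasted WT and 5 fed WT mice. Acta1 and Myh1 were so in at most 1 animal of a group. The summed muscle signal was 0.226 to 0.339 times the 75th percentile in fasted LKO and 0.207 to 0.313 in fed LKO. It was 0.261 to 0.573 in fasted WT and 0.208 to 0.314 in fed WT. The summed signal of the 5 adipocyte markers was 0.452 to 0.634 in fasted LKO, 0.483 to 0.715 in fed LKO, 0.752 to 1.66 in fasted WT and 0.670 to 1.17 times the 75th percentile in fed WT. That sum was lower in fasted LKO than in fasted WT mice without overlap, but of the 4 adipocyte markers tested only Cfd was called lower in LKO. Cfd had an LKO minus WT difference of -4.22 (SE 0.52) in fasted and -3.20 (SE 0.52) in fed mice (limma, adjusted p 2.09e-06 and 0.000635). It was well above background in only 3 of 6 fasted LKO and 2 of 6 fed LKO mice. The size of both differences therefore rests partly on signals that were not. The median of the 4 adipocyte markers was -0.20 in fasted mice, and the part of the muscle and adipocyte markers in the Car3 values was not tested.

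Cux2 encodes a homeodomain transcription factor made in female but hardly in male mouse liver, and represses male-biased genes in females. At its main probe the level was -3.47, -2.94 and -0.41 in fasted LKO and -5.47, -4.88 and -4.23 in fed LKO (lowest, median and highest). Fasted WT mice had -2.44, -4.78, -3.88, -3.10 and -3.69, against -5.49, -5.53, -5.75, -5.97 and -5.21 in fed WT mice. All fasted LKO arrays were well above background, as were 5 of 6 fasted WT arrays, 1 of 6 fed LKO arrays and 0 of 6 fed WT arrays. In WT, therefore, the fold of fasted over fed is given as a bound, against the higher of the dim probe's signal and the lowest signal of any probe well above background on each array. By this bound, on the scanner's processed signal, fasted WT mice were 2.34-fold (1.22 in log2) above fed WT mice (1.92 to 2.88 with any 1 animal left out). The fasted mean includes mouse 2, at -4.78 and not well above background, so the bound is not strict. It holds for the processed signal only, since other processings gave smaller differences, as given below. In LKO the fasted minus fed difference was 2.52 (SE 0.47), but only 1 fed array was well above background, so the size of this value rests mostly on fed signals that were not.

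The spread of Cux2 within the fasted groups was wide. Fasted LKO mice 1 and 5 had -0.41 and -0.82, and the other 4 lay between -3.47 and -2.85, a range that overlaps the fasted WT mice. LKO minus WT was 1.27 (SE 0.49) in fasted mice and on the 3 slides -0.02, 2.18 and 1.08. The same 2 fasted LKO mice were the highest at the second probe, at -0.53 and -1.26, and at the third, at -1.23 and -1.03. At the second probe no fed array of either genotype was well above background. The bound was 4.48-fold in LKO (3.31 to 5.50 with any 1 animal left out) and 1.79-fold in WT. Fasted WT mouse 2 was again not well above background there. Fasted and fed WT mice overlapped at that probe, and the WT bound was 1.35 without fasted WT mouse 1 and 2.76 without fasted WT mouse 2. At the third probe fed WT mouse 5 had -0.50, above every fasted mouse, while the other fed WT mice had -7.14 to -5.42. The probes lie at chr5:122308503-122308562, chr5:122310447-122310506 and chr5:122345446-122345505 (mm9). Corrected with normexp in place of the scanner's processed signal, the main probe's fasting difference was 1.05 in LKO and 0.47 in WT, and the authors' deposited table gave 1.48 and 0.83. Both WT values lie below the log2 bound of 1.22. At the second probe the deposited table gave 1.82 in LKO, below the log2 bound of 2.16, and 1.14 in WT, above the log2 bound of 0.84.

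Cyp17a1 encodes steroid 17-alpha-hydroxylase, an enzyme of androgen synthesis that mouse liver also expresses. Its level was 3.22, 3.83 and 4.26 in fasted LKO and 2.24, 2.53 and 3.28 in fed LKO (lowest, median and highest). Fasted WT mice had 2.70, 2.80, 2.49, 2.44 and 2.91, against 2.10, 1.94, 2.03, 2.13 and 1.77 in fed WT mice. Fasted LKO mice were highest and fed WT mice lowest, and the groups between, fed LKO and fasted WT, did not differ beyond their spread. The fasted minus fed difference was 1.17 (SE 0.16) in LKO and 0.67 (SE 0.18) in WT. LKO minus WT was 1.16 (SE 0.17) in fasted and 0.66 (SE 0.17) in fed mice, with no overlap in either state, and was positive on each of the 3 slides. The difference of the fasting responses was 0.50 (SE 0.24). In LKO the fasted and fed mice overlapped through fed LKO mouse 3 at 3.28, and the difference was 1.29 (SE 0.15) without it. The fed LKO minus WT difference was then 0.53 (SE 0.15), and the difference of the fasting responses 0.62 (SE 0.21).

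Cyp17a1 has 1 probe, printed because all its values rest on it. Its 60 bases span 614 bases of mm9, chr19:46742594-46743207 on the minus strand, and so cross an exon junction.
Cyp17a1 probe: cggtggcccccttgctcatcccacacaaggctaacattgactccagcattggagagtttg
Cyp11a1 and Cyp11b1, the defining steroid enzymes of the adrenal cortex, were not well above background in any animal. The sum of the 5 adrenal markers was 1.80 to 4.05 in fasted LKO, 3.84 to 10.8 in fed LKO, 1.44 to 2.32 in fasted WT and 3.19 to 6.50 times the 75th percentile in fed WT. Of the 3 adrenal markers tested, only Cyp21a1 was called lower in fasted mice, and only Cyp21a1 was called higher in fasted LKO than in fasted WT mice. Its values are given among the relatives below. The highest sum was that of fed LKO mouse 3.

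Bcl6 encodes a transcriptional repressor that competes with STAT5 at shared sites in the liver and that growth hormone lowers. Its level was 3.41, 3.61 and 3.93 in fasted LKO and 1.75, 2.20 and 4.72 in fed LKO (lowest, median and highest). Fasted WT mice had 4.23, 3.69, 3.85, 2.96 and 4.05, against 3.02, 2.19, 4.29, 3.88 and 4.26 in fed WT mice. The 4 groups overlapped, with an SD of 0.20 in fasted LKO against 1.11 in fed LKO, and of 0.49 in fasted WT against 0.91 in fed WT, so the fed mice were spread the most. The fasted minus fed difference was 1.04 (SE 0.42) in LKO and 0.23 (SE 0.46) in WT. LKO minus WT was -0.14 (SE 0.44) in fasted and -0.95 (SE 0.44) in fed mice.

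Single animals carried much of these Bcl6 values. The other fed LKO mice lay between 1.75 and 2.76, and fed LKO mouse 1 had 4.72, the highest of all 22 animals. Without it the fasting difference in LKO was 1.47, and the fed LKO minus WT difference -1.38. Without fed WT mouse 2, at 2.19, the fasting difference in WT turned to -0.10. On the 3 slides the fed LKO minus WT difference was 0.02, -0.92 and -2.33. The second probe, which carries another transcript ID, gave a fasting difference of 1.16 (SE 0.64) in LKO and 1.69 (SE 0.71) in WT, and a fed LKO minus WT difference of 0.10 (SE 0.68). Bcl6 is also known from lymphocytes. The summed signal of 6 lymphocyte markers was 2.14 to 2.58 in fasted LKO, 2.57 to 3.20 in fed LKO, 2.23 to 2.50 in fasted WT and 2.35 to 2.83 times the 75th percentile in fed WT. Its part in the Bcl6 values was not tested.

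The main probe of Bcl6 lies at chr16:23965160-23965219 and the second at chr16:23967780-23967839 (mm9). Both RefSeq promoter windows of Bcl6 hold TTCNNNGAA, the first in 1 place and the second in 3, whereas no window of Hsd3b5, Slco1a1 or Cux2 holds it. The Bcl6 windows are shown for that reason, 5′ to 3′ on the minus strand with the matches in capitals, at chr16:23988853-23989102 and chr16:23981284-23981533 of GRCm38.p6.
Bcl6 first window: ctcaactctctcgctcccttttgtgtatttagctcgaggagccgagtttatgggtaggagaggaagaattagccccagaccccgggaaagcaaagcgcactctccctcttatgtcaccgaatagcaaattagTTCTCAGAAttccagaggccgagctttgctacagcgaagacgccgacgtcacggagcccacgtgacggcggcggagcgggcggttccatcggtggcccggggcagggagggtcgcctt
Bcl6 second window: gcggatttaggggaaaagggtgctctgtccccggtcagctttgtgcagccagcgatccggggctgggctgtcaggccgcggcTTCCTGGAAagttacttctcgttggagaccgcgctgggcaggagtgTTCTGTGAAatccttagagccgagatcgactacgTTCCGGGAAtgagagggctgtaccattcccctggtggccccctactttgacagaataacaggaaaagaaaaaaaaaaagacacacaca
The matches are TTCTCAGAA in the first window and TTCCTGGAA, TTCTGTGAA and TTCCGGGAA in the second. They start 118 bases before the first start, and 168, 122 and 88 bases before the second.

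**Figure D1:**
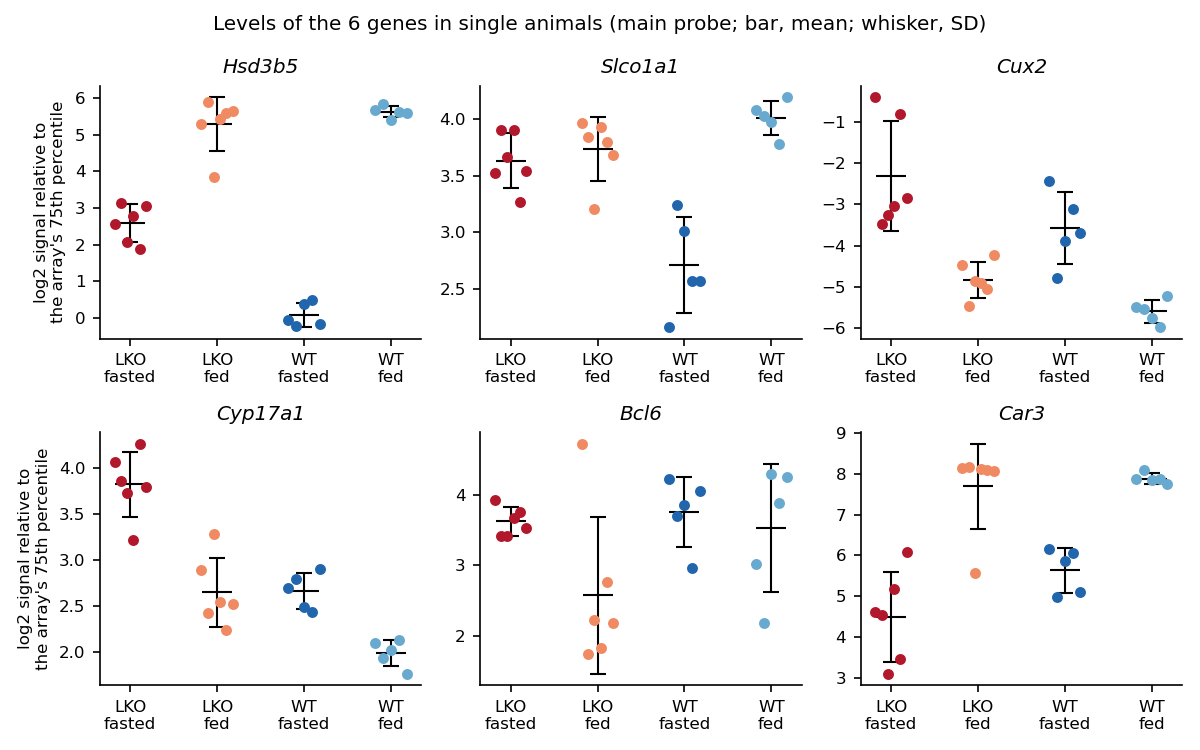
Each point is 1 animal at the gene's main probe, with the log2 signal relative to the array's 75th percentile on the vertical axis and the 4 groups on the horizontal axis, and bars and whiskers give the mean and SD of 5 or 6 animals. Fasted WT mice have the lowest mean for Hsd3b5 (0.08) and Slco1a1 (2.71), fasted LKO mice the highest for Cyp17a1 (3.82), and the low fed LKO point of Hsd3b5, Slco1a1 and Car3 is the same mouse.

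At their main probes 2 of the 6 genes had fasted and fed LKO groups that did not overlap, against 27.3% of the 17206 genes tested, and 5 of the 6 in WT, against 34.5%. Fasted LKO and fasted WT mice did not overlap for 3 of the 6, against 25.3% of all genes, and fed LKO and fed WT mice for 1 of the 6, Cyp17a1, against 3.68%. The genes were chosen with these contrasts known, so nothing is read from the counts. The 5 main-probe differences of a gene share animals: the fasting and the genotype differences use the same 4 group means.

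**Figure D2:**
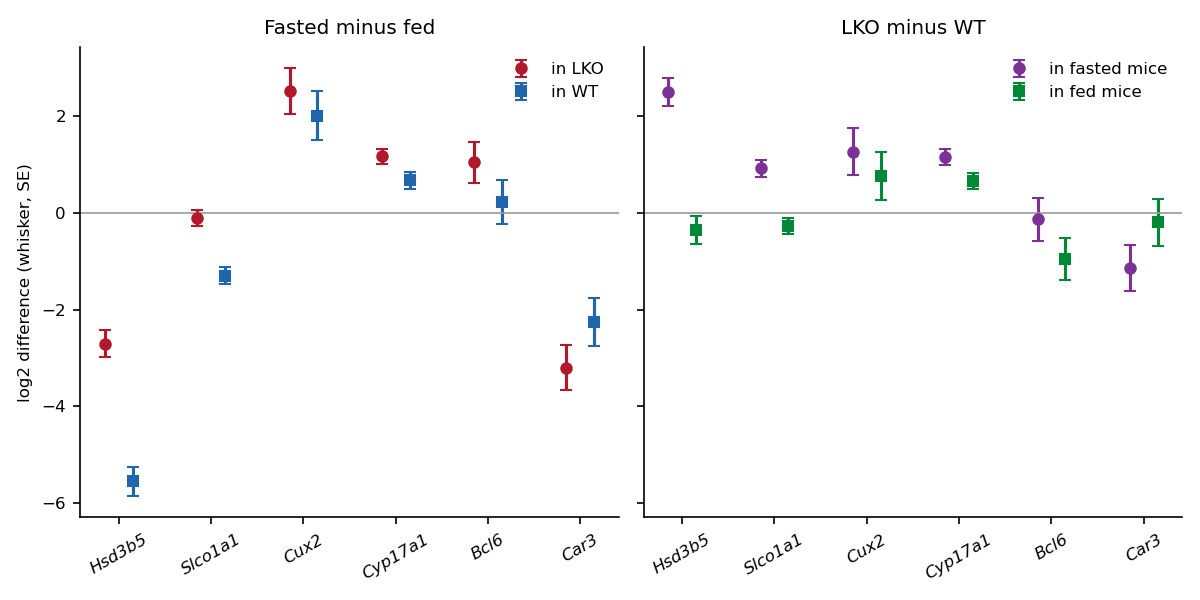
Points are log2 differences at the main probe with the SE of the fit to all 22 animals, fasted minus fed on the left in LKO (circles) and WT (squares), and LKO minus WT on the right in fasted (circles) and fed mice (squares). For Hsd3b5 the fasting difference is -2.71 in LKO and -5.55 in WT, and for Slco1a1 -0.10 in LKO and -1.30 in WT. The Cux2 points involve fed signals that were mostly not well above background.

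**Figure D3:**
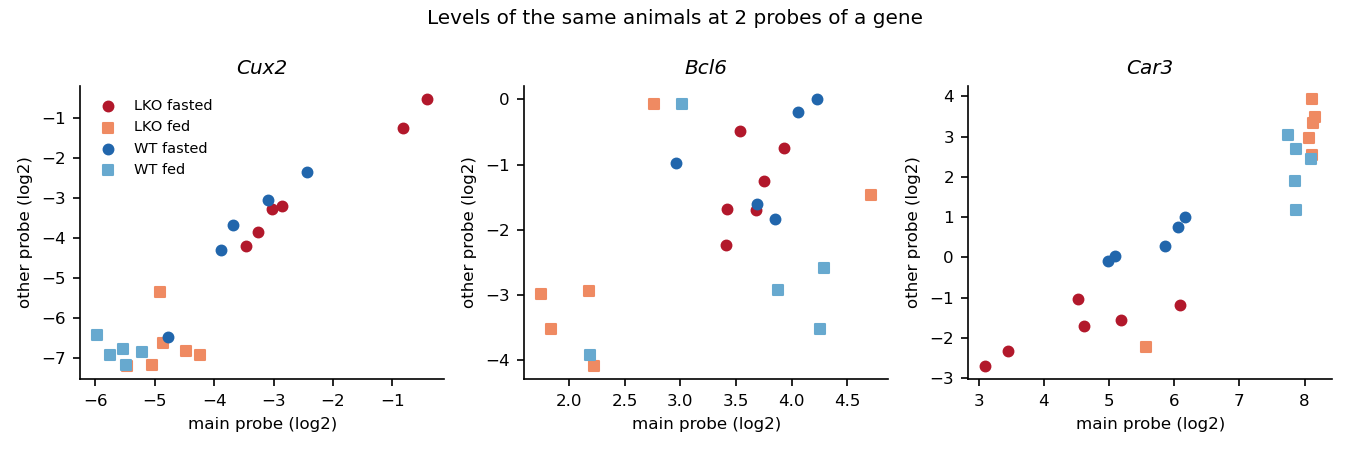
Each point is 1 animal, with its log2 level at the main probe on the horizontal axis and at another probe of the same gene on the vertical axis, for Cux2, Bcl6 and Car3, with circles for fasted and squares for fed mice. For Car3 the fasted LKO mice lie below all fasted WT mice on the vertical axis only, and for Bcl6 the order of the animals differs between the probes.

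The next question was how other genes of growth hormone action, tested over all 17206 genes with limma and Benjamini-Hochberg adjustment, stood beside the 6. Of all genes, 23.0% were higher and 26.7% lower in fasted LKO than in fed LKO mice at an adjusted p below 0.05, and 22.8% were higher and 21.7% lower in fasted than in fed WT mice. Of 16 genes of growth hormone signalling, 4 rose and 4 fell with fasting in LKO, and 2 rose and 4 fell in WT, with medians of -0.05 and -0.04 against -0.04 and 0.00 over all genes. Onecut1, a transcription factor induced by growth hormone, fell by 3.97 (SE 0.51) in LKO and by 2.78 (SE 0.55) in WT. Cish, a STAT5 target that feeds back on the receptor, fell by 2.33 (SE 0.60) in WT (adjusted p 0.0034), while its difference in LKO was -1.23 (SE 0.55, adjusted p 0.068). Ghr, the growth hormone receptor, fell by 0.33 (SE 0.11) in LKO and by 0.76 (SE 0.12) in WT. Socs2, another STAT5 target, passed the test in neither genotype, at -1.15 (SE 0.48) and -0.69 (SE 0.52). Fed LKO mouse 3 had the highest Cish and Socs2 of its group, and the LKO values of both genes include it.

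The genes of the insulin-like growth factor system did not move as one. Igfbp1, a binding protein induced by fasting, rose by 3.18 (SE 0.41) in LKO and by 1.93 (SE 0.45) in WT, and Igfbp2 rose by 1.40 (SE 0.16) and 1.35 (SE 0.17). Igfals, the acid-labile subunit that holds the factor in the circulation, fell by 1.14 (SE 0.19) in LKO, with -0.51 (SE 0.21) in WT. Igf1 had differences of 0.00 (SE 0.08) in LKO and 0.07 (SE 0.08) in WT at its brightest probe, but the mean of its detected probes fell by 0.64 in WT (adjusted p 0.0297). Between genotypes, Igfbp2 was lower in LKO by 1.08 (SE 0.16) in fasted and by 1.14 (SE 0.16) in fed mice, and was the only gene of the list to pass the test when fed. In fasted mice 2 of the 16 were higher in LKO than in WT, Ghr by 0.32 (SE 0.12) and the cytokine signalling inhibitor Socs1 by 0.83 (SE 0.18), and 2 were lower, Igfbp2 and Igfals, the last by 0.52 (SE 0.20). Of all genes, 18.1% were higher and 19.9% lower in fasted LKO than in fasted WT mice, and 1.99% each way when fed. The fasting responses of none of the 16 genes passed the test for a difference between genotypes, against 18.3% of all genes (limma, 5 at an unadjusted p below 0.05).

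Of 15 other male-biased liver genes, 8 fell and 0 rose with fasting in LKO, and 9 fell and 0 rose in WT, with medians of -0.49 and -0.67. At an unadjusted p below 0.05 from the same limma fit, 8 and 11 were lower and 0 higher. Selenbp2 fell by 1.39 (SE 0.14) in LKO and by 1.65 (SE 0.16) in WT, and Egfr, the receptor of epidermal growth factor, by 1.30 (SE 0.17) and 1.00 (SE 0.18). Cyp7b1, an oxysterol hydroxylase, fell by 0.92 (SE 0.19) in LKO and by 1.10 (SE 0.21) in WT. Between genotypes, 5 of the 15 were higher and 3 lower in fasted LKO than in fasted WT mice, and 1, C6, was higher when fed, by 0.48 (SE 0.12). In fasted mice Moxd1, a monooxygenase gene, was higher in LKO by 5.92 (SE 1.09), C6 by 1.14 (SE 0.12), Nox4 by 0.68 (SE 0.13) and Selenbp2 by 0.52 (SE 0.15), as Hsd3b5 and Slco1a1 were by value. Moxd1 was well above background in only 3 of 5 fasted WT mice, so the size of its difference rests partly on signals that were not. The 3 that were lower were Cyp4a12a at -1.64 (SE 0.19), Cyp4a12b at -1.63 (SE 0.19) and Elovl3, a fatty acid elongase, at -1.15 (SE 0.43). The fasting responses of 6 of the 15 passed the test for a difference between genotypes. C6, a complement component, fell by 0.49 (SE 0.11) in LKO and by 1.15 (SE 0.12) in WT, and Nox4, an NADPH oxidase, had -0.01 (SE 0.13) in LKO and fell by 0.67 (SE 0.14) in WT. The difference between these responses was 0.66 for both, in the same direction as the values of Hsd3b5 and Slco1a1. Cyp4a12a and Cyp4a12b, fatty acid and arachidonic acid hydroxylases whose probes may share signal, went the other way, with falls of 1.02 (SE 0.18) and 1.00 (SE 0.18) in LKO and differences of 0.20 (SE 0.20) and 0.17 (SE 0.20) in WT.

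Of 18 female-biased liver genes 12 were tested, and 7 rose and 2 fell with fasting in LKO, against 5 and 0 in WT, with medians of 0.52 and 0.84 (limma, the same counts at an unadjusted p below 0.05). Like Cux2, the flavin monooxygenase Fmo2 and the transcription factor Tox were higher in fasted mice of both genotypes. Fmo2 rose by 2.05 (SE 0.17) in LKO and by 1.55 (SE 0.18) in WT, and Tox by 1.42 (SE 0.20) and 1.69 (SE 0.21). Nipal1, a magnesium transporter gene, rose by 2.32 (SE 0.53) in LKO and by 4.35 (SE 0.59) in WT. Abcd2, a peroxisomal transporter of very long chain fatty acids, rose by 1.83 (SE 0.27) in WT. It was not well above background in any LKO mouse, so its fall in LKO, 1 of the 2 counted, is one between signals below background, and the same limit holds for its difference between genotypes. Between genotypes, 1 gene of the 12 was higher and 3 were lower in fasted LKO than in fasted WT mice, and 1 each way in fed mice. At an unadjusted p below 0.05 (limma), 5 were higher and 3 lower in fasted mice, and 4 each way in fed mice. Cyp2a4, a steroid hydroxylase, was higher in LKO in both states, by 0.91 (SE 0.10) in fasted and 0.43 (SE 0.10) in fed mice. The other 6 genes of the list were detected in too few animals to be tested.

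**Figure D4:**
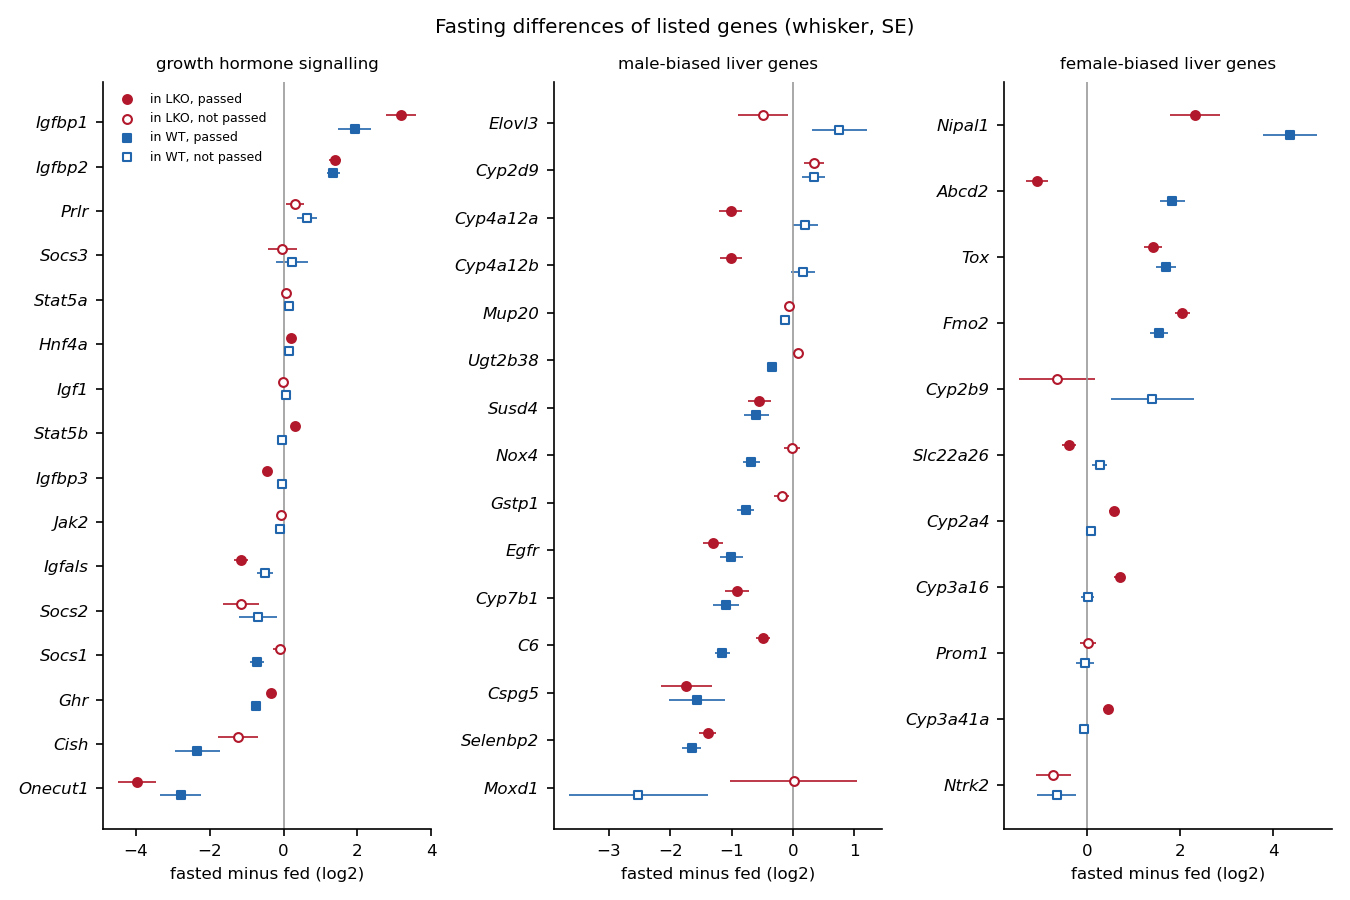
Points are fasted minus fed log2 differences with their SE for the tested genes of 3 lists that are reported here, in LKO (circles) and WT (squares), filled where the adjusted p was below 0.05. The Abcd2 point in LKO rests on signals below background. Onecut1 lies at -3.97 in LKO and -2.78 in WT, and filled points of the male-biased list all lie below 0.

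Relatives of the 6 genes were read in the same way, 17 of 22 being tested. With fasting, 2 rose and 10 fell in LKO, and 2 rose and 8 fell in WT. Between genotypes, 5 were higher and 8 lower in fasted LKO than in fasted WT mice, and 3 were higher and 0 lower when fed (limma, 4 higher and 3 lower at an unadjusted p below 0.05). In the family of Hsd3b5, Hsd3b3 fell by 1.31 (SE 0.12) in LKO and by 0.65 (SE 0.13) in WT, and Hsd3b6 by 1.33 (SE 0.13) and 0.66 (SE 0.15), with the larger fall in LKO (difference -0.65 and -0.67, adjusted p 0.017 and 0.025). For Hsd3b5 the larger difference was that of WT. Their probes may share signal, and Hsd3b2 changed sign with the choice of probe. Of the transporters, Slco1a4 rose by 1.80 (SE 0.17) in LKO and by 1.75 (SE 0.19) in WT, whereas Slco1b2 had 0.15 (SE 0.11) in LKO and fell by 0.35 (SE 0.13) in WT. Among carbonic anhydrases, Car14 fell by 1.86 (SE 0.15) in LKO and by 0.81 (SE 0.16) in WT, and Car2 fell by 1.16 (SE 0.16) in LKO with 0.21 (SE 0.17) in WT. Cux1, the paralog of Cux2, fell by 0.71 (SE 0.07) in LKO, with -0.11 (SE 0.07) in WT. Bcl6b, the paralog of Bcl6, rose by 0.67 (SE 0.15) in LKO and fell by 0.42 (SE 0.17) in WT. Cyp21a1, an enzyme of glucocorticoid synthesis, fell by 1.13 (SE 0.28) in LKO and by 1.62 (SE 0.30) in WT, opposite to the fasting differences of Cyp17a1. It was higher in fasted LKO than in fasted WT mice by 0.82 (SE 0.29, limma, adjusted p 0.0298), as Cyp17a1 was by value.

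Because Bcl6 and the growth hormone targets both varied among fed animals, they were set side by side, with Bcl6 at its main probe. The choice was made after the values had been seen. Fed LKO mouse 1, with Bcl6 at 4.72, had the lowest Onecut1 of the fed LKO mice at 2.53, the lowest Cish at -0.29 and the lowest Socs2 at -1.30. The other fed LKO mice, with Bcl6 from 1.75 to 2.76, had Onecut1 from 4.35 to 5.63 and Cish from 1.52 to 4.00. The highest Cish of that group, 4.00, and its highest Socs2, 1.85, were those of fed LKO mouse 3, which had the high Lcn2 and Socs3. Fed WT mouse 5, with Bcl6 at 4.26, had the lowest Onecut1 of its group at 2.44 and the lowest Socs2 at -0.15. Fed WT mouse 2, with the lowest Bcl6 of its group at 2.19, had the highest Onecut1 at 5.21. Fed WT mouse 4 did not follow that order, with Bcl6 at 3.88 and the highest Cish of its group at 3.48. Nor did fed WT mouse 3, with the highest Bcl6 of its group at 4.29 and Cish at 2.88, or fed WT mouse 1, with the lowest Cish at 1.36 and Bcl6 at 3.02. Among fasted LKO mice, mouse 1 had the highest Bcl6, at 3.93, and the highest Onecut1, at 1.41, and mouse 5 was next for both, at 3.75 and 1.04. Among fasted WT mice, mouse 1 had the highest Bcl6, at 4.23, and the highest Onecut1, at 2.34. The second Bcl6 probe gave another order of the fed mice. There fed LKO mouse 1 had -1.47, and fed LKO mouse 5 the highest value of the group, at -0.06. Fed WT mouse 1 had the highest value of its group, at -0.07, and fed WT mouse 5 had -3.54. Fed WT mouse 2 was the lowest of its group at that probe too, at -3.93.

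**Figure D5:**
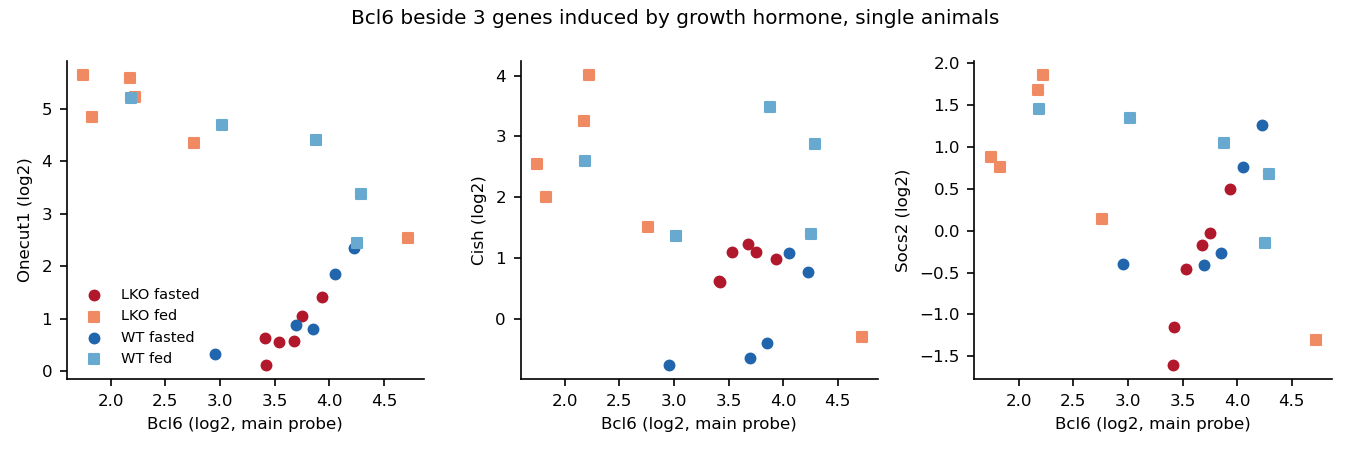
Each point is 1 animal, with the log2 level of Bcl6 at its main probe on the horizontal axis and that of Onecut1, Cish or Socs2 on the vertical axis, circles for fasted and squares for fed mice. Among fed LKO mice the single point at a Bcl6 level of 4.72 has the lowest level of all 3 other genes.

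The genes most like each of the 6 were sought among the tested genes, leaving out symbols of clones, predicted genes, loci and unnamed sequences. They were those with the smallest root mean square difference of centred log2 levels over the 22 animals. For Hsd3b5, whose own levels lay 2.24 around their mean by that measure, they were Serpina5 at 0.78, which was not well above background in any fasted WT mouse, Serpina9 at 0.79 and Cyp2c70 at 0.87. Cyp2c70, an enzyme that makes muricholic bile acids in mice, had fasting differences of -3.70 in LKO and -4.28 in WT. For Slco1a1 (0.54) they were Tcf7 at 0.26, F11 at 0.26 and Fam46a at 0.28, and for Cyp17a1 (0.72) Apba2 at 0.26, Jund at 0.28 and Neurl1a at 0.29. For Car3 (1.63) they were Keg1 at 0.63, Pdxp at 0.66, not well above background in any fasted LKO mouse, and Col27a1 at 0.72. For Cux2 (1.48) the nearest were Srxn1 at 0.80, Hmox1 at 0.81 and Stap1 at 0.83, of which Srxn1 and Hmox1 encode enzymes of the oxidative stress response. For Bcl6 (0.84) they were Atoh8 at 0.61, Btg1-ps2 at 0.62 and Setd4 at 0.62, little below the gene's own spread.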

How the data were processed

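Scanner files hold fluorescence intensity values (gProcessedSignal) made with Agilent Feature Extraction 10.10.1.1, background-subtracted and detrended, per the file headers, and not normalized between arrays. A deposited table with log2 expression of 31356 probes, made by the authors with limma per the submitters' processing notes, served as an alternative.

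Control and outlier-marked spots were dropped, repeat spots averaged, log2 intensity set relative to each array's 75th percentile (444 to 614 units), and the 2 arrays of an animal averaged. Probes with a symbol were kept if well above background in at least 5 of 22 animals, and each gene was represented by its brightest kept probe. Group means of the 22 animals were modelled in limma 3.58.1 (R 4.3.3), with Benjamini-Hochberg adjustment over 17206 genes and a threshold of 0.05. The fit was tested on simulated data. The share of probes well above background was 50.0% to 58.8% per array, and the number of animals limits precision. The labels do not say how littermates or cages were split, so p-values measure the spread between these animals.

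Members, lists and tests were chosen with earlier results of these data known. Named genes are the members, Ppara, genes of the signalling and relatives lists, up to 6 called genes per comparison with the largest change from the sex-biased lists, and the 3 genes nearest each member. Symbols of clones, predicted genes, loci and unnamed sequences were left out of the search for the nearest genes. A female-biased gene is not reported here, though list counts include it. Lcn2, Cxcl1, Socs3 and Saa1 values were added after the data were seen. Of 12 member probes, 7 matched the RefSeq table by transcript accession, all with the same symbol. Promoter sequences are from RefSeq, and 4 of the 6 members had one. Replicate numbers of the labels were not used to pair the animals. Of 31 correlations of same-numbered deviations, from -0.18 to 0.18, 5 were over 0.1. They were not compared with differently numbered animals, so they cannot tell whether the numbers mark litters or cages. Alternatives were normexp background correction, quantile normalization, the deposited table, no filter on dim probes, the mean of a gene's probes, first arrays only, slide or replicate number as a block, and each animal left out.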

Additional observations from a re-analysis of the deposited data

Results flagged for a closer look

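In groups of 5 or 6 animals, 9 of the 48 probe and group combinations of the 6 genes had 1 animal past Dixon's critical value, and chance alone flags about 1 in 20. The combinations share animals, and some genes have several probes, so the 9 are not independent and nothing is read from their number. Most of the 9 belong to fed LKO mouse 3, which was low for Hsd3b5 at 3.85, for the 2 Slco1a1 probes at 3.20 and 3.16, and for the 3 Car3 probes at 5.56, -2.24 and -3.23. Fed LKO mouse 1 was high for Bcl6 at 4.72 at the main probe, fed WT mouse 5 was high for Cux2 at -0.50 at the third probe, and fed LKO mouse 4 was high for Cux2 at -5.34 at the second probe, where it was not well above background.

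The fasting difference in LKO minus that in WT was tested with limma at an adjusted p below 0.05. It passed for 6 of 15 male-biased genes, 5 of 12 female-biased genes and 8 of 17 relatives of the 6 genes, against 18.3% of all genes. Among male-biased genes the value was 0.66 for C6, 0.66 for Nox4, 0.59 for Gstp1, 0.42 for Ugt2b38, -1.22 for Cyp4a12a and -1.17 for Cyp4a12b. Among female-biased genes it was -2.90 for Abcd2, which was not well above background in any LKO mouse, 0.48 for Cyp2a4, 0.69 for Cyp3a16, 0.51 for Cyp3a41a and -0.65 for Slc22a26. Ugt2b38, Cyp3a41a and Slc22a26 lie outside the rule for named genes and are given after their values were seen. Among relatives of the 6 genes it was 0.51 for Slco1b2, -1.05 for Car14, -1.37 for Car2, -0.71 for Car5a, -0.65 for Hsd3b3, -0.67 for Hsd3b6, -0.60 for Cux1 and 1.08 for Bcl6b. Probes of close copies, as in the Hsd3b, Cyp4a12, Cyp2a and Cyp3a families, may share signal.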

How the results depend on the processing

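Among the 6 genes, Cux2 had a fasting difference of 1.05 in LKO and 0.47 in WT after normexp and 1.48 and 0.83 in the deposited table. With the mean of all kept probes of a gene, the fed LKO minus WT difference of Cux2 turned to -0.09, the fasting difference of Bcl6 in WT was 0.96, and the Car3 difference of the fasting responses was -1.78. Without 1 animal the fasting difference of Bcl6 in WT turned to -0.10. The main probe of Cux2 was not well above background on most fed arrays, so its difference there is limited by signal over background. In fed LKO against fed WT mice 1 male-biased gene passed the test, against 2 with normexp, quantile normalization, the deposited table or slide as a block, and 0 with the replicate block. The replicate block changed no other count by more than 1.5 times. For the difference of the fasting responses, the deposited table called 3 female-biased genes, against 5, and quantile normalization and the deposited table each called 1 growth hormone signalling gene, against 0. With no filter on dim probes 2 signalling genes were called between fasted genotypes, against 4. With 1 animal left out, female-biased calls ranged from 4 to 7 between fasted and from 2 to 4 between fed genotypes, signalling calls from 2 to 5 between fasted genotypes and from 0 to 2 for the difference of responses, and male-biased and relatives' calls between fed genotypes from 0 to 2 and from 1 to 4. With the mean of all kept probes of a gene, Hsd3b2 with fasting turned to -0.98 in LKO and -0.67 in WT, Igf1 with fasting in WT to -0.64, and Egfr in fasted LKO against WT to 0.52. Their causes were not tested.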

Other observations

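Fed LKO mouse 3 had a Saa1 level of 9.89, with Hsd3b5 at 3.85 and Car3 at 5.56. Fed WT mice 4 and 2 had Saa1 levels of 8.95 and 7.84, against 5.16 to 6.11 in the other fed WT mice, with Hsd3b5 at 5.62 and 5.85 and Car3 at 7.87 and 8.10. The markers differed in these animals: fed LKO mouse 3 had Lcn2 at 6.98, Cxcl1 at 5.15 and Socs3 at 3.36. Fed WT mouse 4 had 2.40, 1.14 and 1.34 for these genes, and fed WT mouse 2 had 1.38, 1.07 and 0.31. These genes were looked at after the member values had been seen.

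The 2 arrays of a twice-hybridised animal differed by at most 0.31 at the probes of Hsd3b5, Slco1a1, Cyp17a1, Bcl6 and Car3. At the Cux2 probes the 2 arrays of the fed WT animal differed by 1.00, 3.32 and 0.63, and those of the fasted WT animal by 0.11, 0.04 and 0.15.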
